A study of Mus musculus with 42 samples.

Results

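The genes described here are 4 BMP ligands, Bmp2, Bmp4, Bmp5 and Bmp7, and 6 genes known as direct targets of BMP signalling, Id1, Id2, Id3, Msx1, Msx2 and Smad6. They were taken as the probes whose RefSeq accession belongs to these genes, which gave 11 probes for the 10 genes, out of 27656 probes for 20972 named genes on the array. Each gene is represented by the probe with the highest mean over all 42 arrays. Bmp4 alone had a second probe, which was above background on 0 arrays.

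The cells were mouse embryonic stem cells (mESCs, here ESCs) that carry fluorescent reporters in the Gsc and Hhex loci and were differentiated towards anterior definitive endoderm (ADE) over 6 days. RNA was hybridised to single-colour Agilent arrays, 3 for each of 14 groups, and the values are log2 intensity after background correction and quantile normalisation by the authors. The 11 untreated groups were ESCs, unsorted cells of day 2 (d2), and populations sorted on the reporters: GSC negative (G-) and positive (G+) cells at d3 and d4, G-, Glow and Ghigh cells at d5, and G+H- and G+H+ cells at d6, where H is HHEX. The other 3 groups were d6 cultures for which the labels name no sort. Control had DMSO in ESC culture and during differentiation, ADE_EPZ had DMSO in ESC culture and 2.5 µM EPZ6438 during differentiation, and ES_EPZ had EPZ6438 in ESC culture and DMSO during differentiation. EPZ6438 inhibits EZH2, the enzyme of PRC2 that methylates lysine 27 of histone H3. All groups come from 1 reporter line, the 3 samples of a group are given as independent experiments, and the untreated and EPZ6438 series share no slide, so that series and slide cannot be told apart.

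BMPs are secreted ligands of the TGF-beta family that signal through paired serine/threonine kinase receptors to SMAD1, SMAD5 and SMAD9, which enter the nucleus with SMAD4. Id genes encode inhibitors of basic helix-loop-helix factors, Msx1 and Msx2 encode homeobox repressors, and Smad6 encodes an inhibitor of the same pathway, so that its induction closes a feedback loop. In the gastrulating embryo BMP4 from extraembryonic tissue is known to pattern the posterior primitive streak and mesoderm, and the anterior endoderm is known as a source of BMP antagonists.

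The bases before the start sites are shown for 4 members whose levels the results turn on. Msx2 and Smad6 had the most similar course over the groups of any pair of members, Bmp4 had group means 7.15 apart on the log2 scale, and Id2 was called lower than in ESCs in 5 populations. The sequences are those of RefSeq for GRCm38.p6, 5′ to 3′, and capitals mark GGAGCC and GGCGCC, letters of GC-rich elements that SMAD1 and SMAD5 are known to bind, on either strand.
Msx2, chr13:53472781-53473030, minus strand: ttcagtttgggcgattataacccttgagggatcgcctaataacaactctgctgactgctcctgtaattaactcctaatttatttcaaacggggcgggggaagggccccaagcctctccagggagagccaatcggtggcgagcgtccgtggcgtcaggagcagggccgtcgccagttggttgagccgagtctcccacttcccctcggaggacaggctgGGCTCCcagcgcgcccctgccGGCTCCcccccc
Smad6, chr9:64022086-64022309, minus strand: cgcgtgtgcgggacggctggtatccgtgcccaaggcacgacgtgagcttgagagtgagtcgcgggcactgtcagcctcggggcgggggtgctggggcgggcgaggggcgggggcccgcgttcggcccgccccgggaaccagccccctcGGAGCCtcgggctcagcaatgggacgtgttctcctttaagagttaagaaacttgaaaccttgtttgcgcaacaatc
Bmp4, chr14:46390670-46390919, minus strand: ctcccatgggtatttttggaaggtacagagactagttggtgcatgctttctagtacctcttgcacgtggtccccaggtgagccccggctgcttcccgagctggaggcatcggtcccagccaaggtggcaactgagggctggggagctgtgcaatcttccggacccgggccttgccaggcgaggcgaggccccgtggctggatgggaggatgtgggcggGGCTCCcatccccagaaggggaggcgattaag
Id2, chr12:25096093-25096342, minus strand: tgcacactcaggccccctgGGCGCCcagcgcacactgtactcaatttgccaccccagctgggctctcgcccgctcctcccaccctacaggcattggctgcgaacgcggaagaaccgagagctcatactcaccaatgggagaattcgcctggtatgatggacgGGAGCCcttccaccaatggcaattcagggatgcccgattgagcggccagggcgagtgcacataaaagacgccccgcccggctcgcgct
Promoters were held for 7 members. Within 250 bases before the start, 5 of them, Bmp4, Id2, Id3, Msx2 and Smad6, had GGAGCC or its complement GGCTCC, which 26% of all 32851 promoters had. GGCGCC, which is its own complement, was in 1 of the 7, Id2, and in 9.59% of all promoters. CAGAC or GTCTG, a SMAD4 box, was in 2 of the 7, Bmp5 and Id3, and in 42.2% of all promoters. Msx2 had 2 copies of GGAGCC, at 33 and 12 bases before its start. Smad6 also had 2, at 102 and 18 bases, and the latter lies in the span of a longer transcript and is not printed above. These matches are a description of the letters and the arrays do not test them.

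A gene was called where limma gave an adjusted p of at most 0.01 and a log2 difference of at least 1.5 in size, a fold of 2.83, with the Benjamini-Hochberg adjustment taken across every probe. Every p-value of a gene below is this limma adjusted p unless it is named as unadjusted. Of the 10 members, 8 were above background on every array. Bmp2 was above background on 40 arrays, missing on 1 of ESCs and 1 of d2. Bmp5 was above background on 28 and on 0 arrays of ESCs, d2 and d6 G+H+, so its folds against those groups are lower bounds. A lower level in a population can be fewer cells that express the gene or less RNA per cell, and bulk arrays cannot tell these apart. Gsc was higher in G+ than in G- cells by 3.55 at d3 and 2.41 at d4 on the log2 scale (adjusted p = 3.91e-06 and 0.00104), while Hhex was higher in d6 G+H+ than in d6 G+H- cells by 0.47, which was not called.

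The untreated groups were first compared with ESCs. In the 10 comparisons, 50 of 100 member tests were called, 41 higher and 9 lower, against 6.29% of all gene tests, 2.9% higher and 3.39% lower. These shares are a description, since the comparisons share the ESC arrays and the members were chosen with earlier results of these data known. All genes also include some that were not above background on all arrays of any group. Bmp2 and Msx1 were each higher in 8 of the 10 populations, Bmp7 in 7, Msx2 in 6, Id3 and Smad6 in 5 and Bmp5 in 2. Bmp4 was lower in 3 populations, Id2 in 5 and Id1 in 1. By population the count rose from 2 of 10 members at d2, where 1.73% of all genes were called, to 8 of 10 in d5 Glow cells, where 7.74% were. It was 4 of 10 in d6 G+H+ cells, where 11.1% of all genes were called. Between these, 3 members were called in d3 G- (2.42% of all genes), 6 in d3 G+ (6.59%), 3 in d4 G- (3.21%), 7 in d4 G+ (7.41%), 5 in d5 G- (4.32%), 7 among d5 Ghigh (8.19%) and 5 among d6 G+H- cells (10.2%).

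**Figure D1:**
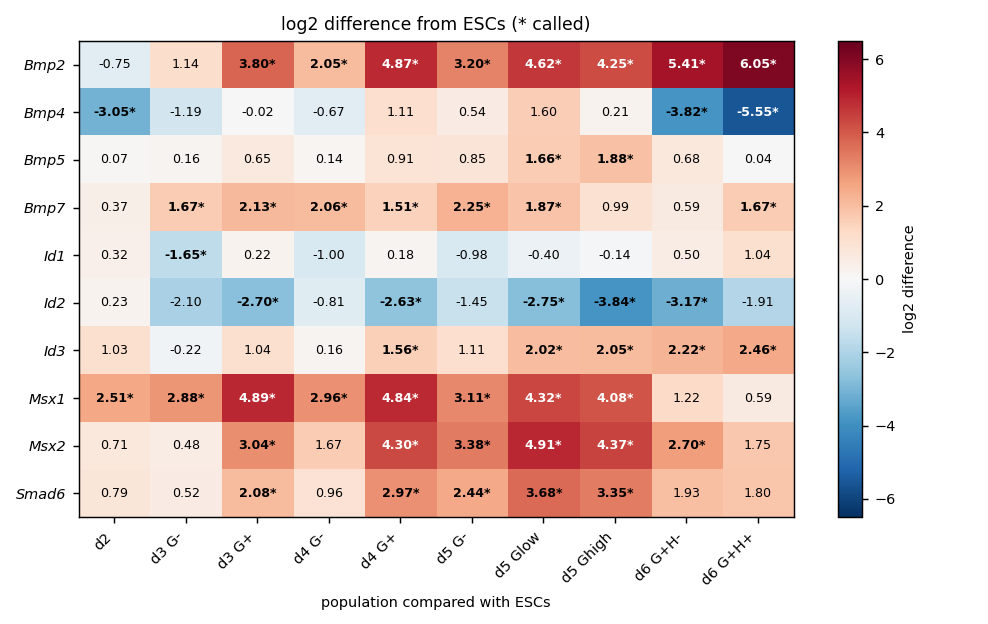
log2 difference from ESCs of each member (rows) in the 10 untreated populations (columns), from the fit over 3 arrays a group, with called values in bold and starred. Bmp2 went from -0.75 at d2 to 6.05 in d6 G+H+ cells, Bmp4 was at -5.55 there, and Msx1, Msx2 and Smad6 had their largest differences between d3 and d5.

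Among the ligands, Bmp2, which signals through the same receptors as BMP4, was called higher than in ESCs in 8 populations and had its highest mean in d6 G+H+ cells, with 0 calls in the steps between d3 and d5. Its log2 intensity was 6.34, 6.95 and 5.23 in ESCs, 5.95, 4.90 and 5.43 at d2, 10.25, 10.23 and 9.45 in d3 G+ cells, with 12.04, 12.38 and 12.27 for d6 G+H+ cells. The d6 G+H+ arrays were above every other array of the 42. Against ESCs the difference was 3.80 ± 0.39 (SE) at d3 G+ and 6.05 ± 0.39 at d6 G+H+, a fold of 66.4 (adjusted p = 3.04e-09 and 2.57e-14). ESC replicate 3, at 5.23, and d2 replicate 2, at 4.90, were not above background, so 2 of 3 arrays measured Bmp2 in each of these groups. Against d2 it was already higher in d3 G- cells, at 8.23, 6.98 and 6.73, by 1.89 ± 0.39 (adjusted p = 0.00213). That last call was lost without d2 replicate 2, d2 replicate 3 or d3 G- replicate 1, where the adjusted p reached 0.0523.

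Bmp4, the ligand that patterns the posterior streak, had group means that spanned 7.15 on the log2 scale. Those of Bmp2 spanned 6.81 down to d2, where 1 array was not above background, so the order of these spans is not settled. It stood at 12.43, 12.73 and 13.48 in ESCs and at 9.87, 10.01 and 9.61 at d2, a difference of -3.05 ± 0.68 (adjusted p = 0.00363). It was then at 13.83, 12.62 and 12.12 in d3 G+ cells, 3.02 ± 0.68 above d2 (adjusted p = 0.00146). In d5 Glow cells, its highest group, the mean was 14.48 ± 0.42 (SD, n = 3). The fall at d2 missed the threshold without any 1 of ESC replicates 2 and 3 or the 3 d2 arrays, with an adjusted p of up to 0.0258, and the rise to d3 G+ missed it without d3 G+ replicate 1, at 0.0208. All 3 arrays of d2 lay below all of ESCs and of d3 G+.

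At d6 Bmp4 fell to its lowest levels. It was at 14.29, 13.74 and 11.25 in d5 Ghigh cells, at 7.80, 9.30 and 10.07 for d6 G+H- cells and at 6.95, 7.56 and 7.50 in d6 G+H+ cells. Relative to d5 Ghigh, G+H- cells differed by -4.04 ± 0.68 and G+H+ cells by -5.76 ± 0.68, a fold of 54.2 for the latter (adjusted p = 0.000165 and 2.26e-07). Within d6 the 3 G+H+ arrays lay below the 3 G+H- arrays, with a difference of -1.72 (95% interval -3.11 to -0.34), which was not called (adjusted p = 0.933). Bmp2 and Bmp4 thus ended at opposite extremes of their own ranges in the same sorted cells.

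Bmp5 was dim throughout. Its log2 intensity was 5.08, 5.02 and 4.32 in ESCs, 7.25, 6.84 and 5.98 in d5 Ghigh cells and 4.91, 4.75 and 4.88 in d6 G+H+ cells. It was at least 3.12-fold higher in d5 Ghigh than in ESCs and at least 2.66-fold higher in d5 Glow (adjusted p = 3.32e-05 and 0.000215), and at least 3.28-fold lower in d6 G+H+ than in d5 Ghigh (adjusted p = 0.000113). The d5 Glow call was lost without ESC replicate 3 or d5 Glow replicate 1. Over the 6 fits without a single array its difference ran from 1.32 to 2.02. With a normexp offset of 50 or no background correction, all 3 of these Bmp5 calls were lost.

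Bmp7, which can pair with BMP2 or BMP4, moved over 2.24 on the log2 scale between its lowest group mean, in ESCs, and its highest, in d5 G- cells. It was at 7.97, 7.82 and 7.28 in ESCs, at 9.55, 9.89 and 10.02 in d3 G+ cells and at 9.92, 10.25 and 9.64 in d5 G- cells. The d3 G+ and d5 G- arrays lay above all ESC arrays, by 2.13 ± 0.32 and 2.25 ± 0.32 in the mean (adjusted p = 4.42e-06 and 2.9e-06). The d5 Ghigh arrays, at 8.60, 8.36 and 9.08, all lay below those of d5 G- cells, by -1.26 ± 0.32, which missed the threshold (adjusted p = 0.0133). Of the 7 calls against ESCs, d3 G- (1.67), d4 G+ (1.51) and d6 G+H+ (1.67) were lost without ESC replicate 3, d4 G+ also without its replicate 2 and d6 G+H+ without its replicate 2, where the differences went down to 1.46, 1.31 and 1.30.

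**Figure D2:**
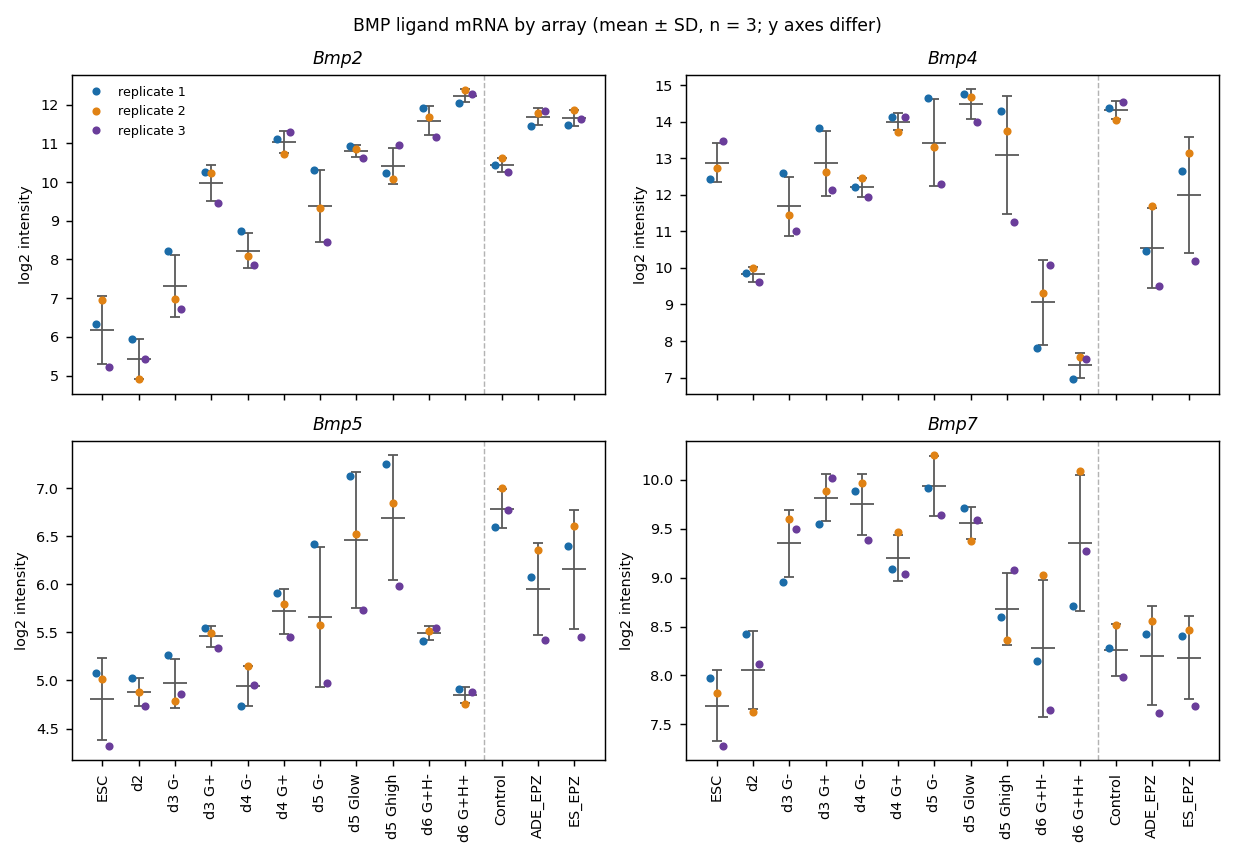
log2 intensity of the 4 ligands on each array (points, coloured by replicate number) in the 14 groups, with the group mean and SD (n = 3), and a dashed line between the untreated and the EPZ6438 series. Bmp2 had a mean of 12.23 in d6 G+H+ cells where that of Bmp4 was 7.33, and replicate 3 was the lowest array for Bmp4 and Bmp5 in all 3 d5 populations.

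The 3 Id genes, each an inhibitor of basic helix-loop-helix factors, did not all share a course. Over the group means, Id1 and Id3 had a Pearson r of 0.73, while Id2 had -0.19 with Id1 and -0.63 with Id3. Both Id1 and Id3 had their lowest mean in d3 G- cells, at 9.96 and 10.39. Their highest was in d6 G+H+ cells, at 12.65 and 13.07. Id1 was at 11.39, 12.18 and 11.26 in ESCs and fell to 10.59, 9.44 and 9.84 in d3 G- cells, by 1.65 ± 0.41 on the log2 scale (adjusted p = 0.00672). It was at 11.65, 11.66 and 12.16 in d3 G+ cells. The ESC and d3 G- arrays did not overlap, but the call held without d3 G- replicate 1 only, and leaving out any other of the 6 arrays gave an adjusted p of up to 0.0523.

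Id3 rose. It was at 10.82, 11.14 and 9.86 in ESCs and at 12.94, 13.40 and 12.87 in d6 G+H+ cells, 2.46 ± 0.29 higher (adjusted p = 3.07e-08). Calls of higher Id3 were made for d4 G+, d5 Glow, d5 Ghigh and both d6 populations, by 1.56 to 2.46, and the d4 G+ call was lost without ESC replicate 3 or d4 G+ replicate 1. Over the 6 fits without a single array its difference ran from 1.18 to 1.82.

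Id2 was called lower than in ESCs in 5 populations. It was at 11.60, 12.25 and 11.65 in ESCs, 11.93, 12.09 and 12.17 at d2, and 8.79, 8.59 and 6.61 in d5 Ghigh cells, a difference of -3.84 ± 0.69 from ESCs (adjusted p = 5.13e-05). Among the untreated groups, the calls were d3 G+, d4 G+, d5 Glow, d5 Ghigh, then d6 G+H-, by -2.63 to -3.84. In d3 G-, d4 G-, d5 G- and d6 G+H+ cells every array also lay below every ESC array. The mean differences were -2.10, -0.81, -1.45 and -1.91, and these were not called (adjusted p = 0.0479, 0.706, 0.212 and 0.0372). The share of all genes apart from ESCs in this way was not taken. Between G+ and G- cells of a day Id2 was not called either, with differences of -0.60 at d3 and -1.82 at d4 (adjusted p = 0.935 and 0.156). With only the compared groups in the fit, the d4 difference between G+ and G- cells passed (adjusted p = 0.0026). The calls at d3 G+ and d4 G+ against ESCs were not stable. Of 6 fits without a single array, 1 and 0 kept them, with adjusted p of up to 0.04 and 0.0252. That of d5 Glow was lost without ESC replicate 2 or d5 Glow replicate 3, at up to 0.0363. At d3 G-, Id2 was at 7.81, 10.50 and 10.89, with replicate 1 below the other arrays.

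Msx1, Msx2 and Smad6 were each called higher than in ESCs in all 4 GSC-expressing populations of d3 to d5. They were also called in d5 G- cells, by 3.11, 3.38 and 2.44, and Msx1 in d3 G- and d4 G- cells too. Msx1, a homeobox repressor of the streak and mesoderm, was at 6.46, 7.02 and 6.62 in ESCs and already at 9.59, 8.83 and 9.23 at d2, 2.51 ± 0.60 higher (adjusted p = 0.00717, and up to 0.045 without any 1 of the 6 arrays). It reached 11.85, 11.44 and 11.48 in d3 G+ cells, a fold of 29.6 over ESCs (adjusted p = 1.34e-07). In d6 G+H+ cells it was at 6.97, 7.30 and 7.61, 3.49 ± 0.60 below d5 Ghigh (adjusted p = 8.38e-05). The d6 G+H+ level differed from that of ESCs by 0.59 (95% interval -0.64 to 1.82), which was not called. The call for d3 G- cells against ESCs, 2.88, was lost without ESC replicate 1 or d3 G- replicate 1, where the adjusted p reached 0.0199.

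Msx2, the paralogue of Msx1, was at 7.51, 8.16 and 6.63 in ESCs and was called higher in 6 populations, the earliest d3 G+. In d4 G- and d6 G+H+ cells the differences of 1.67 and 1.75 were not called (adjusted p = 0.119 and 0.0478). It was at 10.56, 10.51 and 10.35 in d3 G+, at 13.13, 12.55 and 11.35 in d5 Glow and at 8.90, 8.81 and 9.85 in d6 G+H+ cells. The differences from ESCs were 3.04 ± 0.66 and 4.91 ± 0.66 for the first 2 of these (adjusted p = 0.000744 and 4.67e-07). The d3 G+ call missed the threshold without ESC replicate 3, at 0.0105, and that of d6 G+H- cells, 2.70, without ESC replicate 3 or its own replicate 3, at up to 0.0208. From d5 Ghigh to d6 G+H+ it fell by 2.61 ± 0.66 (adjusted p = 0.00518), a call that 2 of 6 fits without a single array kept, those without replicate 3 of either group, with an adjusted p of up to 0.0692.

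Smad6, the inhibitory SMAD, had a course close to that of Msx2. It was at 7.13, 7.26 and 7.18 in ESCs, at 9.35, 9.44 and 9.03 in d3 G+ cells, at 11.85, 11.22 and 9.53 in d5 Glow cells and at 8.85, 9.46 and 8.67 in d6 G+H+ cells. Its difference from ESCs was 2.08 ± 0.58 at d3 G+ and 3.68 ± 0.58 in d5 Glow (adjusted p = 0.00871 and 7.71e-06). The d3 G+ call was lost without any 1 of the 6 arrays (adjusted p up to 0.0369), and that of d5 G- cells, 2.44, without ESC replicates 1 or 3 or d5 G- replicates 1 or 2 (up to 0.0705). At d6 Smad6 stayed 1.80 above ESCs in G+H+ cells and all 3 arrays lay above those of ESCs, although the difference was not called.

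**Figure D3:**
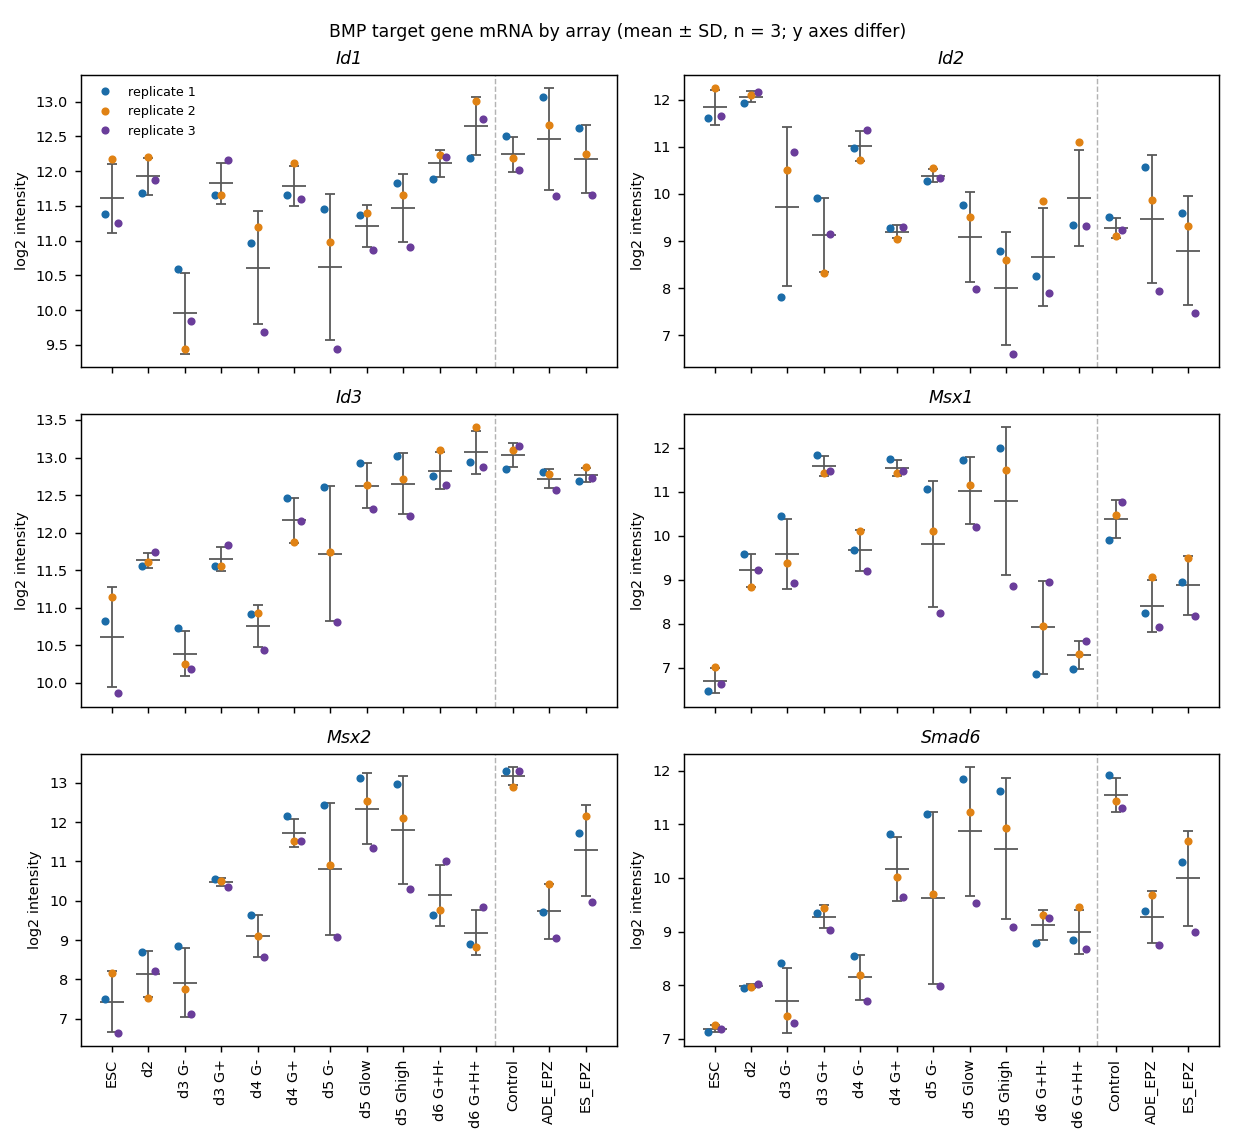
log2 intensity of the 6 target genes on each array (points, coloured by replicate number) in the 14 groups, with the group mean and SD (n = 3). Msx1 peaked at 11.59 in d3 G+ cells, Msx2 and Smad6 at 12.35 and 10.87 in d5 Glow cells among the untreated groups, and Id2 was lowest at 7.99 in d5 Ghigh cells.

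Mesoderm and primitive streak markers were higher in the GSC-expressing populations of d3 to d5. Of 7 mesoderm markers, Mesp1, Kdr, Tbx6, Foxf1, Meox1, Hand1 and Pdgfra, 4 were called higher than in ESCs in d3 G+, 6 in d4 G+, 5 in d5 Glow and 5 in d5 Ghigh cells. All 5 streak markers, Mixl1, Eomes, Gsc, Lhx1 and Wnt3, were called in each of these populations. The summed mesoderm intensity was 1983 to 2327 over the ESC arrays, 10338 to 18935 over d3 G+, 11408 to 17183 over d4 G+, 7591 to 16992 over d5 Glow and 4784 to 13049 over d5 Ghigh, with Mesp1 and Pdgfra above background on 0 ESC arrays. Over the d5 G- arrays the summed mesoderm intensity was 3139 to 13326. The part of these markers in the rise of Msx1, Msx2 and Smad6 was not tested.

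Few neighbours in these orders could be told apart. Over the 10 genes and 14 groups there were 130 pairs of groups next to each other in level, and in 8 of them the 3 arrays of the higher group all lay above the 3 of the lower. They included d6 G+H+ above ADE_EPZ for Bmp2, d6 G+H- above d6 G+H+ for Bmp4, ESCs above d4 G- for Id2 and d3 G- above ESCs for Smad6. Neighbours were set by ranking the same means, and the share over all genes was not taken. The count therefore describes the orders and is not particular to these genes.

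Cells sorted on the same day were then compared, which asks what goes with the GSC and HHEX reporters at a given time. At d3, 2 of 10 members were called between G+ and G- cells, both higher in G+, where 0.701% of all genes were called higher. They were Bmp2, with a difference of 2.66 ± 0.39, and Id1, with 1.87 ± 0.41 (adjusted p = 1.85e-05 and 0.0037). Id3 was 1.26 ± 0.29 higher with an adjusted p of 0.00687 and missed the fold threshold. All 3 G+ arrays lay above all 3 G- arrays for 7 of 10 members, Bmp2, Bmp5, Id1, Id3, Msx1, Msx2 and Smad6, against 10.2% of all genes. Bmp5 was above background on 1 of the G- and 2 of the G+ arrays, so its order is not settled. The Id1 call was kept by 2 of 6 fits without a single array, those without replicate 1 of either population, and the adjusted p reached 0.0469 in the others. With only the compared groups in the fit both calls were lost (adjusted p = 0.0141 and 0.0167), and with 75th percentile scaling that of Id1 was (0.0113).

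At d4, Bmp2 was called, 2.82 ± 0.39 higher in G+ cells (adjusted p = 1.08e-05), as 0.806% of all genes were. Its arrays were at 11.10, 10.73 and 11.29 in G+ and at 8.73, 8.08 and 7.86 in G- cells. For 8 of 10 members all G+ arrays lay above all G- arrays (13.9% of all genes), and for Id2 they lay below (14.4%). Bmp5 is among the 8, with 1 of its G- arrays above background. Bmp7 was the exception, with overlapping arrays and a difference of -0.55. Id3 was 1.40 ± 0.29 higher in G+ cells (adjusted p = 0.00222) and missed the fold threshold. With 75th percentile scaling Id3 passed (adjusted p = 0.002). Msx2 differed by 2.63 ± 0.66 (adjusted p = 0.0115) and Smad6 by 2.01 ± 0.58 (adjusted p = 0.0343). With slide as a fixed or random block both passed, and so did Msx2 at d3. With only the compared groups in the fit, Bmp4, Id2, Msx1 and Msx2 passed at d4 beside Bmp2, and Smad6 did not. Their adjusted p were 0.00273, 0.0026, 0.00487 and 0.00301 for the first 4.

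The markers differed between the same populations. Mesp1, Tbx6 and Pdgfra of the 7 mesoderm markers were called higher in G+ cells at d3, and Mesp1 and Pdgfra at d4, with 4 of 5 streak markers higher and 3 of 5 pluripotency markers lower on both days. Gsc is among the streak markers called, and the cells were sorted on its reporter, so its difference follows from the sort. The summed mesoderm intensity was 2086 to 3047 in d3 G- and 10338 to 18935 in d3 G+ cells, and 2869 to 5428 in d4 G- and 11408 to 17183 in d4 G+ cells. The part of these markers in the differences of Bmp2 and Id1 was not tested.

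At d5 no member was called between Glow and G- cells or between Ghigh and G- cells, where 0.758% and 2.58% of all genes were called. At an unadjusted p under 0.05, there were 5 and 6 of the 10 members in these comparisons, against 14.3% and 21.5% of all genes. Glow and Ghigh cells also gave 0 calls against each other (0.267% of all genes), with 1 member, Bmp7, at an unadjusted p under 0.05 (11.1% of all genes). Without d5 G- replicate 1, Bmp2 was called higher in Glow than in G- cells, by 1.90 (adjusted p = 0.00351). The calls within a day, 3 over d3 to d6, were then 6, and they were 5 without d5 G- replicate 3 and 5 without d5 Ghigh replicate 3, with Msx2 at d3 and d4 as the added calls in all of these fits. For Msx2 the Ghigh to G- difference was 0.99 (95% interval -0.34 to 2.33), and the d5 G- arrays alone ran from 9.08 to 12.45.

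Whether the gap between G+ and G- cells changed from day to day was tested as an interaction, with d5 taken as the mean of Glow and Ghigh. It was called for 0 of 10 members between d3 and d4 and for 0 between d4 and d5, against 0% and 0.00477% of all genes. At an unadjusted p under 0.05 there was 1 member in each, Bmp7 between d3 and d4 (-1.01, 95% interval -1.93 to -0.09) and Bmp2 between d4 and d5 (-1.58, 95% interval -2.63 to -0.53), where 3.45% and 3.91% of all genes were. At d6, 0 members and 0% of all genes were called between G+H+ and G+H- cells, and at an unadjusted p under 0.05 there were 2 members, Bmp4, lower in G+H+, and Bmp7, higher there by 1.08, against 6.01% of all genes.

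The replicates of d5 did not spread evenly. Replicate 3 was the lowest array for 9 of 10 members in G- cells, 9 in Glow cells and 8 in Ghigh cells, and Smad6 was at 11.19, 9.70 and 7.99 in d5 G- cells. The share of all genes lowest in replicate 3 was not taken, so these counts are not read as particular to the members. The median SD of the members was 0.99 in d5 G- cells, against 0.23 for all genes, and 0.93 against 0.20 in d5 Ghigh cells. All genes here include some not above background on all arrays of any group, so the sets are unlike in signal. On the same arrays the mean log2 intensity of the 7 mesoderm markers was 10.07, 9.09 and 7.86 for replicates 1, 2 and 3 of G- cells, 10.60, 10.30 and 9.63 in Glow and 10.32, 9.99 and 8.17 in Ghigh cells. The mean of 6 definitive endoderm markers, Sox17, Foxa2, Foxa1, Cer1, Hhex and Cxcr4, ran the other way, at 11.37, 11.60 and 12.77 in Ghigh cells. The part of these markers and of the slide in the members' spread was not tested. Replicates 1 and 2 of the untreated groups lay on slides 1 to 3 and replicate 3 on slides 4 and 5.

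Between successive days, 14 of 90 member tests were called, 6 higher and 8 lower, against 1.63% of all gene tests, and 8 were called with only the compared groups in the fit. Of the 14, 7 came between d2 and d3 and 7 between d5 and d6. Between d3 and d5, limma called 0 of 50 member tests, and 9 had an unadjusted p under 0.05, as 12.3% of all gene tests did. All genes gave 0.00954% for d4 G- against d3 G-, 0.0334% for d4 G+ against d3 G+, 0.0286% for d5 G- against d4 G-, and 0.138% and 1.15% for d5 Glow and d5 Ghigh against d4 G+. From d2 to d3 G+, Bmp2, Bmp4, Bmp7 and Msx1 were higher and Id2 lower, 5 of 10 where 5.72% of all genes were called. From d2 to d3 G-, Bmp2 was higher and Id1 lower, 2 of 10 where 1.27% were. From d5 Ghigh to d6 G+H-, Bmp4 and Msx1 were lower (2.17% of all genes called), and from d5 Ghigh to d6 G+H+, Bmp4, Bmp5, Msx1 and Msx2 were lower and Bmp2 higher (4.16%). Single arrays decided 5 more of these calls. From d2 to d3, Id1 in G- cells was lost without replicates 2 or 3 of either group (adjusted p up to 0.0234), Msx1 in G+ cells without any 1 array but d2 replicate 1 (0.0332), and Id2 in G+ cells without d2 replicates 2 or 3 or d3 G+ replicate 2 (0.0248). From d5 Ghigh to d6, Msx1 in G+H- cells was lost without Ghigh replicates 1 or 2 or G+H- replicate 1 (0.0433), and Bmp2 in G+H+ cells without Ghigh replicate 2 (0.0131). Without the replicate 3 arrays of the untreated groups, an alternative chosen after seeing the data, there were 19 calls between successive days, 42 against ESCs and 2 within a day.

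The mesoderm markers fell over the same step. From d5 Ghigh to d6 G+H+, 5 of 7 were lower and 0 higher. Their summed intensity was 4784 to 13049 over the d5 Ghigh arrays and 2009 to 2540 over the d6 G+H+ arrays, with Meox1 above background on 0 of the latter. That of the 6 definitive endoderm markers was 20709 to 69300 and 92574 to 101654. Of the 5 streak markers, Mixl1 and Wnt3 were lower, by -3.25 and -2.92 (adjusted p = 2.58e-08 and 3.15e-05). Of 5 visceral endoderm markers 3 were higher, Ttr by 3.13, Amn by 1.96 and Sox7 by 1.99 (adjusted p = 0.000103, 1.03e-06 and 1.34e-05), with a summed intensity of 251 to 273 in d5 Ghigh and 888 to 1667 in d6 G+H+ cells and Afp above background on 0 arrays of the latter. The part of these markers in the fall of Bmp4, Msx1 and Msx2 was not tested.

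Control cultures of d6 had high levels of several members. Bmp4 was at 14.38, 14.05 and 14.54, Msx2 at 13.30, 12.90 and 13.31 and Smad6 at 11.91, 11.43 and 11.31, and the Control mean was the highest of the 14 groups for Bmp5, Msx2 and Smad6. The sorted d6 cells and the Control cultures differ in sort, DMSO, series and slide, which cannot be told apart. The summed mesoderm intensity was 5014 to 6054 in Control, 2966 to 3482 in d6 G+H- and 2009 to 2540 in d6 G+H+ cells, and that of the definitive endoderm markers 22050 to 30090, 62878 to 88364 and 92574 to 101654. Their part in these levels was not tested.

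Bmp4 and 2 of the targets were lower in cultures that had EPZ6438 during differentiation. In ADE_EPZ against Control, 3 of 10 members were called, all lower, where 2.78% of all genes were called and 0.801% were lower. Bmp4 was at 10.45, 11.69 and 9.51 in ADE_EPZ, 3.77 ± 0.68 below Control, a fold of 13.7 (adjusted p = 0.000236). Msx2 was at 9.72, 10.42 and 9.04, 3.45 ± 0.66 lower, a fold of 10.9 (adjusted p = 0.000433). For both, every ADE_EPZ array lay below every Control array, the calls were kept in all 6 fits without a single array, and the differences within the 3 slides ran from -4.53 to -2.69 and from -3.86 to -2.88. On each slide the Control array had another replicate number than the EPZ6438 arrays, so these differences are not between same-numbered samples.

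Smad6 was at 9.39, 9.69 and 8.74 in ADE_EPZ, 2.28 ± 0.58 lower (adjusted p = 0.00726). Its arrays did not overlap those of Control either, and the within-slide differences were -2.70 to -1.92. The call was lost when any 1 of the 6 arrays was left out, with an adjusted p of up to 0.0511 and differences of -2.49 to -2.01. It was also lost with scaling by the 75th percentile in place of quantile normalisation. Both EPZ6438 comparisons share the Control arrays. Leaving out the slide on which both EPZ6438 regimens had their lowest Bmp4, chosen after seeing the data, left 2 calls, Bmp4 and Msx2.

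The other members of this comparison were not called. Msx1 was at 8.25, 9.07 and 7.92 in ADE_EPZ and at 9.90, 10.48 and 10.77 in Control, a difference of -1.97 ± 0.60 (adjusted p = 0.0301). Bmp2 went the other way, at 11.44, 11.79 and 11.84 against 10.44, 10.62 and 10.27, by 1.25 ± 0.39 (adjusted p = 0.0335). All arrays of the regimens were apart for Bmp2, which was higher (20.1% of all genes), and for 6 members that were lower, Bmp4, Bmp5, Id3, Msx1, Msx2 and Smad6 (19.8%). Id1, Id2 and Bmp7 overlapped, with differences of 0.21, 0.19 and -0.06 and 95% intervals of -0.62 to 1.05, -1.21 to 1.58 and -0.71 to 0.59.

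EPZ6438 in ESC culture alone gave 0 called members in ES_EPZ against Control, where 0.429% of all genes were called, and 5 members at an unadjusted p under 0.05 (18.8% of all genes). Bmp4 was at 12.65, 13.15 and 10.19, -2.33 ± 0.68 from Control (adjusted p = 0.0708), and Msx2 at 11.72, 12.16 and 9.96, -1.89 ± 0.66 (adjusted p = 0.148). Bmp2 was at 11.47, 11.87 and 11.63, 1.21 ± 0.39 higher (adjusted p = 0.108). Every ES_EPZ array lay below every Control array for 4 members, Bmp4, Msx1, Msx2 and Smad6 (14.2% of all genes), and above for Bmp2 (14%). Replicate 3 was the lowest ES_EPZ array for 8 of 10 members and the lowest ADE_EPZ array for 9. The share over all genes was not taken here either, so these counts describe the arrays only.

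Both regimens were compared directly as well, and 0 of 10 members were called, as 0.129% of all genes were. At an unadjusted p under 0.05 there were 2 members, against 13% of all genes. They were Bmp4, which was 1.45 lower in ADE_EPZ than in ES_EPZ (95% interval -2.83 to -0.06), and Msx2, 1.55 lower (95% interval -2.89 to -0.22). For Smad6 the difference was -0.72 (95% interval -1.90 to 0.45) and for Bmp2 0.03 (95% interval -0.76 to 0.83). That Bmp4, Msx2 and Smad6 were called in 1 regimen therefore does not show that the regimens differ for them.

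**Figure D4:**
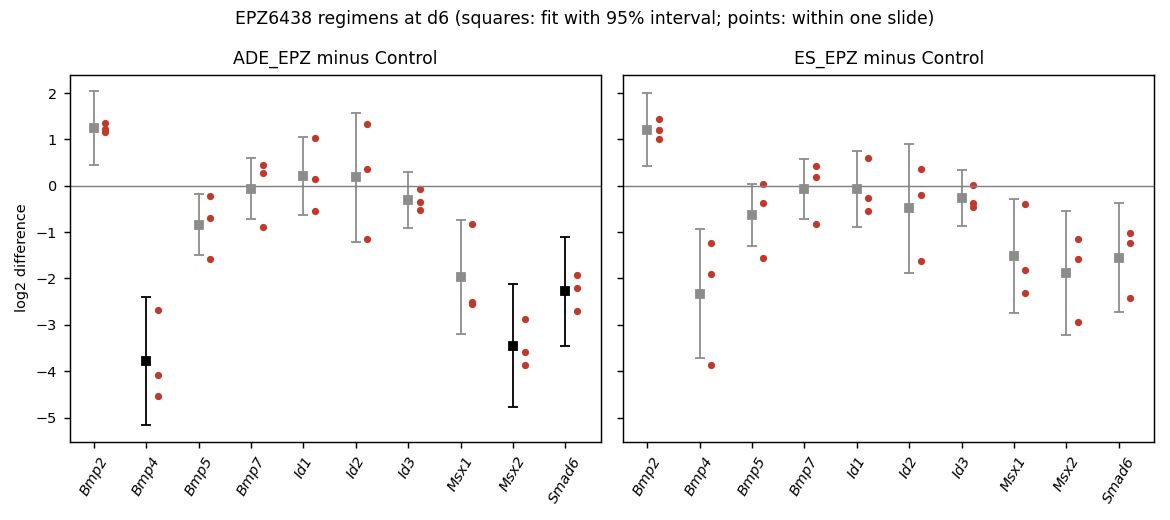
log2 difference from Control of each member in ADE_EPZ (left) and ES_EPZ (right), as squares with the 95% interval of the fit (black where called) and as red points for the 3 within-slide differences. Bmp4, Msx2 and Smad6 were called lower in ADE_EPZ, and Bmp2 was above 0 on all 3 slides in both regimens.

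Markers moved with the regimens too. The summed intensity of the 7 mesoderm markers was 5014 to 6054 over the Control arrays, 3087 to 3786 over ADE_EPZ and 4044 to 4868 over ES_EPZ. That of the 6 definitive endoderm markers was 22050 to 30090, 57890 to 77338 and 47960 to 70730. In ADE_EPZ, 1 of the 7 mesoderm markers, Meox1, was called lower (-2.44, adjusted p = 0.000213), 1 of the 6 endoderm markers, Hhex, higher (2.23, adjusted p = 0.000217), and 2 of 5 primitive streak markers, Mixl1 and Wnt3, lower (-3.34 and -2.46). Of 5 pluripotency markers 1, Zfp42, was higher (1.51, adjusted p = 0.00231), and their summed intensity was 916 to 1148 in Control and 1647 to 2242 in ADE_EPZ. In ES_EPZ, 1 of these lists' genes was called, Mixl1, lower (-1.72, adjusted p = 0.00565). Of 4 trophoblast markers, Cdx2, Elf5, Gata3 and Eomes, the last also a streak marker, 0 were called in ADE_EPZ. Their summed intensity was 12981 to 18075 in Control and 8176 to 8394 in ADE_EPZ. Their mean log2 intensity went the other way, at 9.37, 9.69 and 9.33 in Control and 9.80, 10.13 and 9.83 in ADE_EPZ, so no direction is read from them. All mesoderm markers were above background on at least 1 array of each regimen. The part of all these markers in the fall of Bmp4, Msx2 and Smad6 was not tested.

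Members could be read against each other across the arrays, as a description. Over the 14 group means, Msx2 and Smad6 had a Pearson r of 0.985, and each was the gene with the highest r to the other among 15488 genes with a probe above background on all arrays of a group. Each array's deviation from its group mean, over 42 arrays, gave r = 0.86 for the pair. The groups share the time course, the reporter line and, in part, slides, so these points are not independent.

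Bmp4, Bmp5, Msx1, Msx2 and Smad6 moved together within groups. Picked after their values were seen, these 5 genes had r between 0.71 and 0.90 in all 10 of their pairs for the deviations, and between 0.46 and 0.98 for the group means. For Bmp4 and Msx1 it was 0.86 within groups and 0.68 between groups, where ESCs had high Bmp4 and low Msx1. The other 35 pairs of members had r of -0.24 to 0.73 within groups. Bmp2 and Id2 had the lowest r of group means, -0.80, and Bmp2 and Id3 had 0.82.

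**Figure D5:**
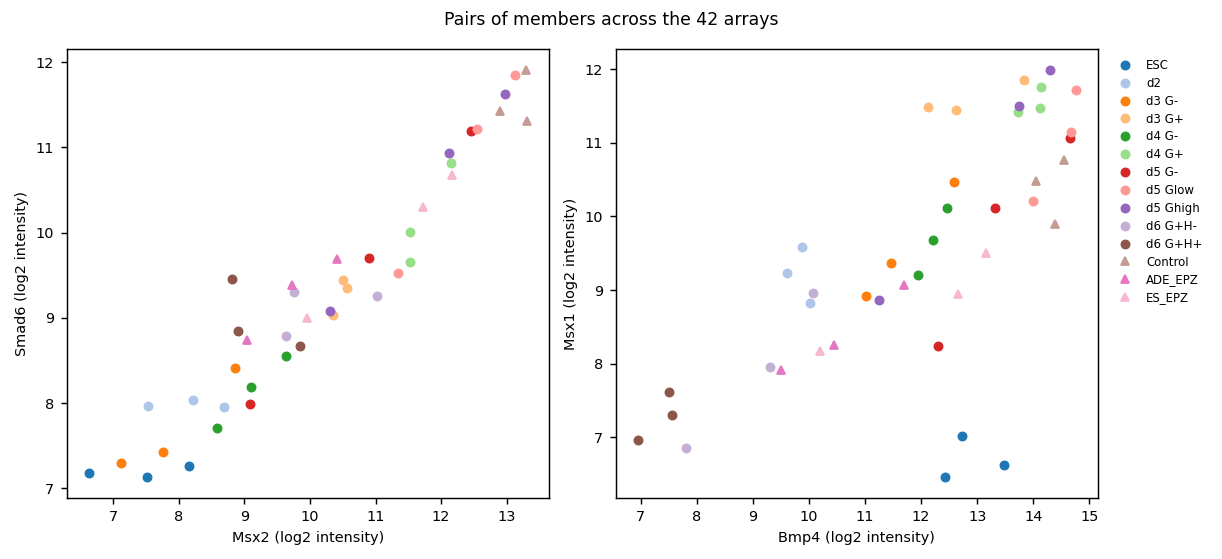
log2 intensity on each of the 42 arrays (circles untreated, triangles EPZ6438 series, coloured by group) for Smad6 against Msx2 (left) and Msx1 against Bmp4 (right). Msx2 and Smad6 lie along 1 line from ESCs to Control, while ESCs stand apart on the right, with Bmp4 between 12.43 and 13.48 and Msx1 between 6.46 and 7.02.

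The nearest genes to the other members by the same measure were Tbca (r = 0.988) and Gprc5c (0.984) for Bmp2, Fstl3 (0.966) and Il6st (0.950) for Bmp4, and Tac2 (0.952) and Tbx5 (0.949) for Bmp5. For Msx1 they were Hoxb3 (0.977) and Nkd1 (0.975), after Smad6 for Msx2 Pcsk5 (0.980), and after Msx2 for Smad6 Padi3 (0.977). Id3 had Zfp516 (0.977) and B4galt7 (0.960), and Id2 had Trim24 (0.950) and Kdm4c (0.926). The likeness was lower for Bmp7, with Sys1 (0.906) and Zfp322a (0.891), and for Id1, with Fem1a (0.906) and Mcts2 (0.891).

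The rest of the pathway was covered by 56 genes in 6 lists, 48 of which were above background on all 3 arrays of at least 1 group. Receptors and co-receptors, such as Bmpr1a, Bmpr2 and Acvr1, had 0 of 9 genes called in any of the 30 comparisons, and the intracellular and membrane inhibitors other than Smad6, such as Smad7 and Bambi, 0 of 7. Among the 4 transducers, Smad1 was higher than in ESCs in 6 of 10 populations and Smad5 in 3. Smad1 went from 7.06 ± 0.09 (SD, n = 3) in ESCs to 9.62 ± 0.35 in d3 G+ cells, by 2.57 (adjusted p = 1.09e-10), and was 1.69 higher in G+ than in G- cells at d3 and 1.81 at d4 (adjusted p = 4.05e-06 and 1.86e-06).

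Of 14 secreted antagonists, 3 were higher and 0 lower in d6 G+H+ cells, with a median difference of 0.19, and 5.79% of all genes were higher there. Cer1, which binds BMPs and Nodal outside the cell, was above background on 0 ESC arrays and stood at 15.92 ± 0.19 in d6 G+H+ cells. Fst, follistatin, was at 8.34 ± 0.34 in ESCs, 13.92 ± 0.19 in d3 G+ cells and 9.67 ± 0.64 in those of d6 G+H+, and was called lower between d5 Ghigh and d6 G+H+ by -1.62 (adjusted p = 0.00124). Bmper was 3.75 higher in G+ than in G- cells at d3 (adjusted p = 1.93e-06). Nog and Chrd, the classical antagonists, were called in 0 comparisons, with Nog between 7.40 and 8.34 in all group means.

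Of 10 other BMP ligands, Bmp8b was lower than in ESCs in 7 of 10 populations, by -3.51 in d6 G+H+ cells (adjusted p = 1.07e-08). Gdf2 was higher in both d6 populations and in ADE_EPZ, by 1.68 in the latter (adjusted p = 0.000928). It was above background on 0 arrays of the G- and G+ cells of d3 and d4. The summed intensity of all 10 of these ligands was 590 to 644 over the ADE_EPZ arrays, so low signal limits the Gdf2 values. Of 12 other genes known to respond to BMP, 4 were higher and 1 lower in d4 G+ cells than in ESCs (3.03% and 4.38% of all genes), Gata3, Hand1, Hey1 and Cdx2 and, lower, Id4. Between d5 Ghigh and d6 G+H+ cells 3 of the 12 were lower, Hand1, Tbx3 and Cdx2, by -4.12, -2.70 and -3.77 (adjusted p = 0.000542, 0.00754 and 0.000304), and 1.43% of all genes were. Gata3 was higher by 2.31 (adjusted p = 0.0029). In ADE_EPZ against Control 1 of the 12 was lower, Tbx3, at 10.23 ± 0.92 against 13.57 ± 0.24, by -3.34 (adjusted p = 0.00137), and 0 were higher.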

How the data were processed

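RNA of 42 samples, 3 in each of 14 groups, was measured on single-colour Agilent arrays. The authors deposited a file of scanner intensity for each array and 1 table of log2 intensity, made by normexp (offset 10) and then quantile normalisation of all arrays together. The deposited log2 table holds spots, and spots of the 432 probes printed more than once were averaged here, for 55681 probes. Recomputed from the deposited intensity, its values had a lowest correlation of 0.99998 over the arrays. Arrays had 24459 to 40398 probes above background, and 0 spots were saturated. The number of arrays limits the precision. Symbols came from RefSeq accessions of GRCm38.p6, which named 21865 of 23171.

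A mean per group was fitted with limma 3.58.1 in R 4.3.3 over all 42 arrays without a block, with the Benjamini-Hochberg adjustment taken across every probe. An exact permutation test of 3 arrays against 3 cannot go under a p of 0.1. Named genes were the members, at most 3 called genes of a list with the largest difference, marker genes and, per member, the 2 genes nearest in group means. Genes named for a level or as uncalled list members were added afterwards. The members and lists were chosen with earlier results of these data known. Code was tested on simulated data. Alternatives are given in the closing section. Sequencing, blot and flow cytometry data of the study were not used here.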

Additional observations from a re-analysis of the deposited data

How the results depend on the processing

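Of the 70 member calls, 38 held under all 15 settings that applied to them and 44 in every fit without a single array, and 0 changed direction under any alternative. Calls between populations of a day moved from 3 to 5 with only the compared groups in the fit, to 6 with slide as a fixed block, 6 with slide as a random block and 7 at an adjusted p of at most 0.05. The replicate block gave 6, with Msx2 at d3 and Msx2 and Smad6 at d4 as the added calls. Calls between successive days moved from 14 to 8 with only the compared groups in the fit. Without single arrays the calls ran from 36 to 53 against ESCs, from 2 to 6 between populations of a day and from 10 to 17 between successive days. They were 2 of 3 in all 6 such fits for ADE_EPZ against Control, where Smad6 was lost, and 0 for ES_EPZ against Control, ADE_EPZ against ES_EPZ and the interactions. The arrays that moved the count within a day past 1.5 times were d5 G- replicates 1 and 3 and d5 Ghigh replicate 3, with 6, 5 and 5 calls. The cause was not tested.

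The labels do not say what same-numbered samples share, and the main fit did not take them as pairs. Their correlation was not over 0.1 in every pair, which does not show that they are unpaired. Of 165 pairs of same-numbered untreated samples, 133 had a correlation of deviations over 0.1, with a median of 0.26 and a lowest of -0.14, against a median of -0.20 for different numbers, and 25 of 33 samples had their highest mean correlation with their own number. In the EPZ6438 series the median over 9 pairs was 0.28 and the lowest -0.01, against a median of -0.18 for different numbers, and 8 of 9 samples had it with their own number. Same-numbered samples were thus more alike in the median than samples of different numbers. The main fit does not allow for this, and the replicate block above does. Among the members, low signal limits Bmp5, and Bmp2 in ESCs and d2.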
